A study of Oryza sativa with 12 samples.

Results

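Gene expression was compared between shoots of a rice mutant, osspt5-1#12, and shoots of the wild-type cultivar Nipponbare (WT), with 3 RNA-seq libraries of each genotype. The series asks what depletion of OsSPT5-1 does to gene expression in shoot and root during vegetative growth, and the 6 shoot libraries are part of 12 in 4 groups. The other groups, mutant root and WT root, were used here for the level and the change of the same loci in root. They also entered the fit that estimated the spread of each locus, on which the shoot p-values rest. Plants of both genotypes were kept on days of 15 h (28 °C) and nights of 9 h (24 °C), with the humidity at 70%. The mutant group is 1 line. The labels give neither the kind of mutation nor the age of the plants, and they do not say whether replicates came from separate plants. The p-values therefore weigh the difference between genotypes only against how far libraries of a group lie apart. That spread was pooled over all 4 groups, as if they varied alike, and part of it may be technical.

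The loci described are rice locus identifiers (Os, a chromosome number, g and a running number) that reached 1 FPKM or more in at least 3 of the 6 shoot libraries. FPKM counts fragments relative to the length of the gene, in kilobases, and to the depth of the library. Of 31003 locus identifiers in the series, 29806 had a value above 0 in a shoot library and 20115 passed this filter. The deposited files give identifiers without gene names. The reference table of gene names matched 1 identifier of the 38034, Os02g0532401, and gives it no descriptive name. It averaged 5.16 ± 1.34 FPKM in mutant shoot and 2.36 ± 0.675 FPKM in WT shoot (SD, n = 3 each), a difference that did not pass the test (log2 fold change 0.87, SE 0.404, limma adjusted p = 0.197). Loci are therefore described by chromosome, length, level and change. No function is assigned to any of them, and the level of OsSPT5-1 and of markers of green tissue was not analysed here.

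SPT5 is a conserved elongation factor that binds RNA polymerase II and travels with it along a gene. With its partner SPT4 it helps the polymerase to stay on the template and to pass through nucleosomes, and it serves as a platform for factors that process the transcript. In plants it has been studied mostly in Arabidopsis, where it takes part in growth and in the response to auxin.

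Shoot libraries of the mutant were more alike than those of WT. Over the locus rows, Pearson's r of log2(FPKM + 1) ran between 0.979 and 0.988 for pairs of mutant shoot libraries and between 0.897 and 0.956 for pairs of WT shoot libraries. Pairs of a mutant and a WT library ran between 0.826 and 0.919, so that some were more alike than the least alike WT pair. The median SD of a locus was 0.17 on the log2 scale in mutant shoot and 0.25 in WT shoot, and 69.2% of loci varied more in WT. The read totals behind the FPKM values were 12208690, 15750501 and 10613340 in mutant shoot libraries 1, 2 and 3, and between 14938345 and 15128449 in WT shoot libraries. Nearly all of these reads lay in the rows, so the totals need not equal the number of reads sequenced. Locus rows took 97.7%, 99.7% and 96.8% of the reads in rows in mutant shoot libraries 1, 2 and 3, against 99.6% to 99.7% in WT shoot. The part of the lower read totals and the lower locus share of mutant libraries 1 and 3 in the results was not tested.

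Single loci were highly expressed in 1 genotype and at or near 0 in the other. The loci with the largest rises and falls on the log2(FPKM + 1) scale, among those that passed the test with no overlap between mutant and WT libraries, are given first with their values in each library.

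Os03g0299700 lies on chromosome 3 and has a length of 1280 bases. It had 75.2, 68.2 and 72.1 FPKM in mutant shoot libraries 1, 2 and 3, and not a single read in any of the 3 WT shoot libraries. The mutant values rest on 3529 reads and differ little among themselves. Against a floor of 3 reads over the WT group, its mean in mutant shoot was at least 1382-fold higher (log2 fold change 6.19, SE 0.178, limma adjusted p = 7.34e-09). The same locus was also high in the mutant in the other tissue, with 78.7 ± 16.3 FPKM in mutant root and 0.917 ± 0.131 FPKM in WT root (SD, n = 3 each). The rise on the log2 scale did not differ between the tissues by the test (root minus shoot −0.83, SE 0.251, limma adjusted p = 0.114), but it did with a pseudocount of 0.1 FPKM (−3.23, adjusted p = 0.000637), with median-ratio factors (−0.87, adjusted p = 0.0498) and with limma-voom (−5.08, adjusted p = 0.00211).

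Os08g0290700, on chromosome 8 and 1303 bases long, had 114, 140 and 130 FPKM in mutant shoot libraries 1, 2 and 3, against 1.42, 0 and 1.38 FPKM in WT shoot libraries 1, 2 and 3. WT library 2 had no read, and the other WT libraries held 55 reads together. The groups were far apart, and the mean was 137-fold higher in mutant shoot. The 95% interval for the counting error of the pooled WT reads alone was 105 to 182. It does not cover the difference between WT library 2 and the other WT libraries. On the log2 scale the rise was 6.16 (SE 0.488, limma adjusted p = 2.36e-05). In root the locus was higher in the mutant as well, with 20.9, 5.34 and 16.8 FPKM in mutant root and 0.228, 0.738 and 1.62 FPKM in WT root. The difference between the effects, root minus shoot, was −3.23 (SE 0.69, limma adjusted p = 0.0306). It did not pass without WT shoot library 2 (adjusted p = 0.0557), without any 1 of the mutant shoot libraries (0.0684 to 0.0812), with a pseudocount of 0.1 FPKM (0.233) or with limma-voom (0.226).

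Os08g0167800, also on chromosome 8 and 1542 bases long, showed the largest fall. It had 0.106, 0.329 and 0.122 FPKM in mutant shoot libraries 1, 2 and 3, against 888, 672 and 709 FPKM in WT shoot libraries 1, 2 and 3. The mutant libraries held 12 reads and the WT libraries 52646 reads of it. Its mean was thus 4068-fold lower in mutant shoot, with a 95% interval of 2329 to 7872 for the counting error of the mutant reads alone (log2 fold change −9.31, SE 0.183, limma adjusted p = 7.88e-10). In root it was almost silent in both genotypes, with 3 reads in mutant root and 4 reads in WT root.

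Os08g0139700 has a length of 2121 bases and lies on the same chromosome. It had 0.463, 0.419 and 0.8 FPKM in mutant shoot libraries 1, 2 and 3, against 239, 316 and 302 FPKM in WT shoot libraries 1, 2 and 3. The mean was 510-fold lower in mutant shoot (log2 fold change −7.52, SE 0.183, limma adjusted p = 2.18e-09). The 95% interval for the counting error of the mutant reads alone was 380 to 702. In root 1 read was found in mutant libraries and 0 in WT libraries. Neither falling locus had a level in WT root from which it could fall, so a difference between the tissues would only restate the falls in shoot.

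**Figure D1:**
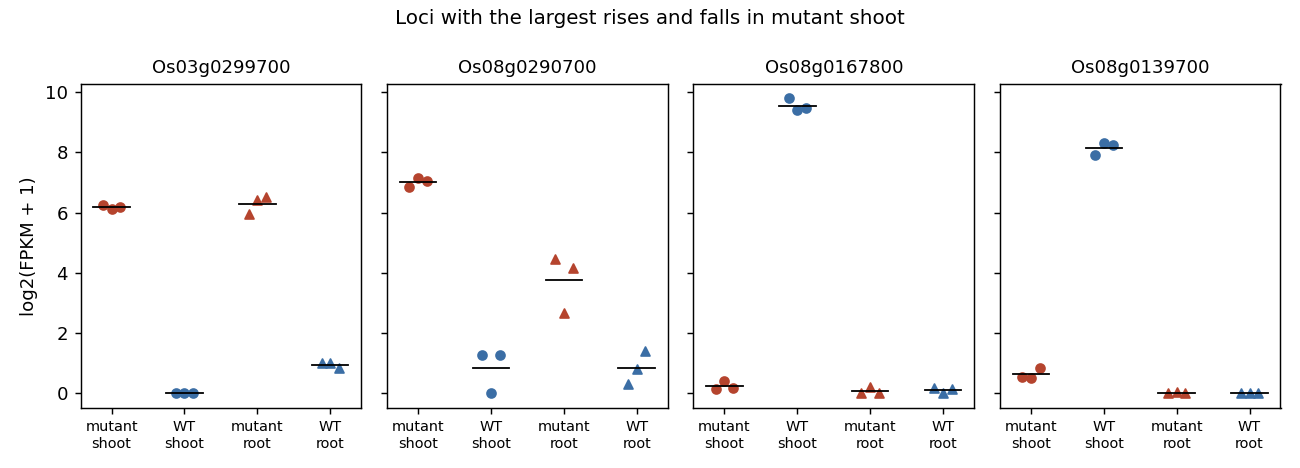
Level of the 4 loci in every library, as log2(FPKM + 1), with mutant in red, WT in blue, shoot as circles, root as triangles and a line at the group mean. Os03g0299700 is near 6.19 in mutant shoot and at 0 in WT shoot, while Os08g0167800 is near 0.24 in mutant shoot and 9.55 in WT shoot.

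The 12 largest rises had log2 fold changes between 5.03 and 6.19, and the 12 largest falls lay between −9.31 and −4.97. The largest fall was thus larger than the largest rise on this scale, which understates changes of loci near 0.

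In all, 2350 of the 20115 loci tested passed the test in shoot, which is 11.7% (limma-trend on log2(FPKM + 1), Benjamini-Hochberg adjusted p under 0.05). In mutant shoot 1189 loci (5.91%) were higher and 1161 (5.77%) were lower than in WT shoot. With every kind of row counted, short non-locus rows included, 2601 of 22401 rows passed (11.6%). The loci that rose had a median level of 16 FPKM in mutant shoot and 5.83 FPKM in WT shoot, and a median log2 fold change of 1.07. Those that fell had a median level of 3.47 FPKM in mutant shoot and 14.2 FPKM in WT shoot, with a median log2 fold change of −1.36.

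Although the counts in each direction were alike with FPKM as deposited, falls outnumbered rises among changes of 2-fold, 4-fold, 8-fold and 16-fold or more. A change of at least 2-fold was found for 664 higher and 879 lower loci, of at least 4-fold for 145 higher and 275 lower, and of at least 8-fold for 45 higher and 84 lower. At 16-fold or more the counts were 17 higher and 39 lower, and at 32-fold or more they were 12 higher and 11 lower. The larger number of falls at 2-fold held under every alternative tried except without WT shoot library 1, where 1272 loci were at least 2-fold higher and 983 lower. Larger folds were not compared under the alternatives.

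**Figure D2:**
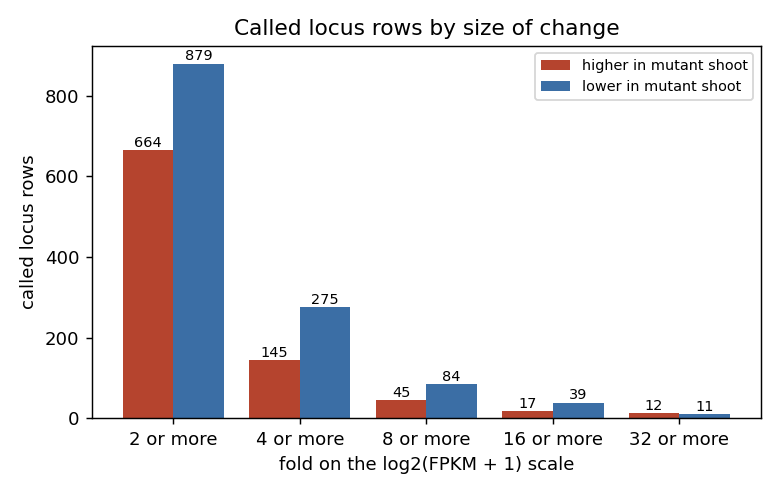
Number of called locus rows past each fold on the log2(FPKM + 1) scale, higher in mutant shoot in red and lower in blue. At 4-fold or more, 145 loci were higher and 275 lower.

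**Figure D3:**
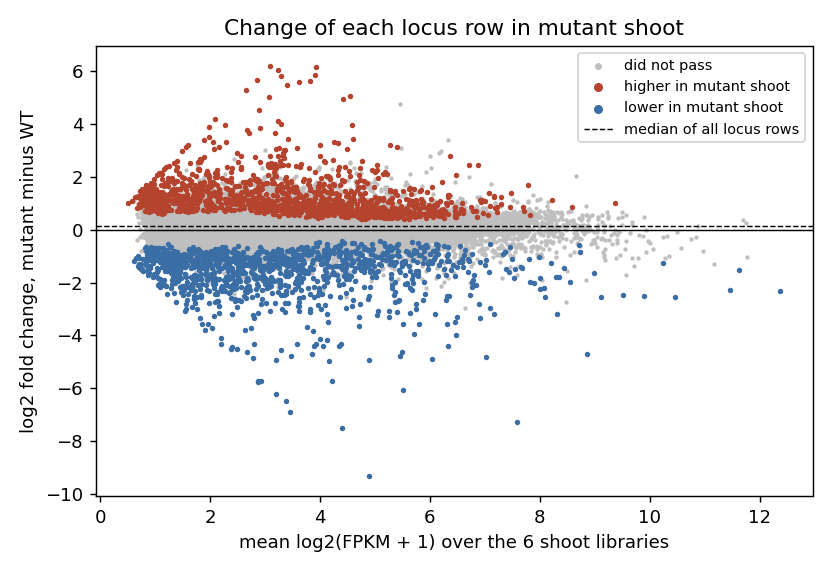
Log2 fold change (mutant minus WT shoot) of each of the 20115 locus rows against its mean log2(FPKM + 1) over the 6 shoot libraries, with rows that passed the test in colour. The dashed line marks the median of all rows, 0.15.

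The number of rises and falls depended on the scaling. Over all loci the median change was 0.15 on the log2 scale with FPKM as deposited and −0.02 with median-ratio factors, so small changes are relative to that shift. With those factors 755 loci were higher and 1514 lower, and 33.3% of the calls were rises against 50.6% as deposited. With quantile normalization 940 were higher and 1385 lower (40.4% rises). Changes of at least 2-fold moved as well, to 468 higher and 1114 lower with median-ratio factors and 526 higher and 1046 lower with quantile normalization. The mutant libraries lay above the highest WT library for 5393 loci (26.8%) and below the lowest for 3323 (16.5%), which became 3458 and 4578 with median-ratio factors. All called loci except 1 that rose and 2 that fell were free of overlap. The calls rest on the same values, so this is no separate evidence for them.

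Single libraries also moved the counts. Without WT shoot library 2 or 3, or without any 1 of the mutant shoot libraries, between 1178 and 1414 loci passed, and without WT shoot library 1 there were 2966. In the same direction, 944 loci passed as reported here and under each of the 14 alternatives in which they were tested, 389 higher and 555 lower. Of those 944 loci, 345 were at least 2-fold higher and 524 at least 2-fold lower.

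Together the loci that fell took 2.82%, 3.08% and 2.81% of the reads in mutant shoot libraries 1, 2 and 3, against 10%, 13.1% and 10.6% in WT shoot libraries 1, 2 and 3. The loci that rose took 7.92%, 7.66% and 7.69% in mutant shoot and 4%, 3.45% and 3.77% in WT shoot. The calls chose these loci, so the shares are descriptions and carry no test. In bulk tissue, fewer cells of a type and less RNA per cell cannot be told apart.

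Some of the loci that fell were among the most abundant. A locus of 565 bases on chromosome 1 had 2108, 3007 and 2064 FPKM in mutant shoot, against 10994, 14989 and 10074 FPKM in WT shoot (log2 fold change −2.33, SE 0.295, limma adjusted p = 0.000565). Another of 652 bases on the same chromosome averaged 1290 ± 210 FPKM in mutant shoot and 6661 ± 2987 FPKM in WT shoot (SD, n = 3 each; limma adjusted p = 0.0144), where WT library 2 at 10108 FPKM stood above the others. A locus of 887 bases on chromosome 2 averaged 1885 ± 215 FPKM in mutant shoot and 5376 ± 605 FPKM in WT shoot (limma adjusted p = 0.00767). The largest gains in FPKM were smaller. A locus of 2379 bases on chromosome 11 had 902, 944 and 962 FPKM in mutant shoot, against 587, 286 and 590 FPKM in WT shoot (log2 fold change 1.01, SE 0.289, limma adjusted p = 0.0457). Its WT library 2 lay well below the others. A second locus, of 2064 bases on the same chromosome, rose to 400, 407 and 393 FPKM in mutant shoot, against 104, 138 and 125 FPKM in WT shoot (log2 fold change 1.71, SE 0.264, limma adjusted p = 0.00198). A locus of 5035 bases on chromosome 5 averaged 441 ± 68.4 FPKM in mutant shoot and 202 ± 30.1 FPKM in WT shoot (limma adjusted p = 0.0275). These loci were ranked by the change in mean FPKM, a choice made after their values were seen.

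Some loci were read in the shoot of 1 genotype only. No read was found in WT shoot for 17 tested loci, all of which passed as higher in the mutant. Their mean in mutant shoot was between 1.03 and 71.8 FPKM, 4 of them were at 10 FPKM or more, and their lower bounds ran from 7.31-fold to 1382-fold. No read was found in mutant shoot for 16 tested loci, all of which passed as lower. Their mean in WT shoot was between 1.63 and 120 FPKM, from 52 to 9870 reads, with lower bounds from 14.8-fold to 2814-fold. To pass the filter without a read in 1 genotype, a locus had to be read in every library of the other, so that all of them passed is no result of its own.

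The 17 loci without a read in WT shoot lay on 9 chromosomes, with 4 on chromosome 3, which holds 13.3% of all loci tested. The 16 without a read in mutant shoot lay on 10 chromosomes, with 5 on chromosome 4, which holds 8.81% of all loci tested. These counts carry no test. In root, 15 of these 16 loci averaged under 1 FPKM in both genotypes, against 9 of the 17. Of all loci tested, 9.98% were under 1 FPKM in WT root, and the share for both genotypes was not taken. Of the 17, 5 also passed as higher in mutant root and 1 as lower, and of the 16, 1 passed as lower and 0 as higher. Over all loci tested, 2.35% were higher and 3.25% lower in mutant root.

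Calls were found on all 12 chromosomes. The share of loci that were higher in mutant shoot ran from 4.85% on chromosome 4 to 6.39% on chromosome 1. The share that were lower ran from 4.92% on chromosome 3 to 8.11% on chromosome 9, where 87 of 1073 loci fell, against 5.77% over all chromosomes. The share on chromosome 9 was above that over all chromosomes under each of the 14 alternatives, between 4.66% against 3.45% and 10.5% against 7.8%. The median log2 fold change of a chromosome's loci was between 0.12 and 0.17. These shares were not tested against each other.

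**Figure D4:**
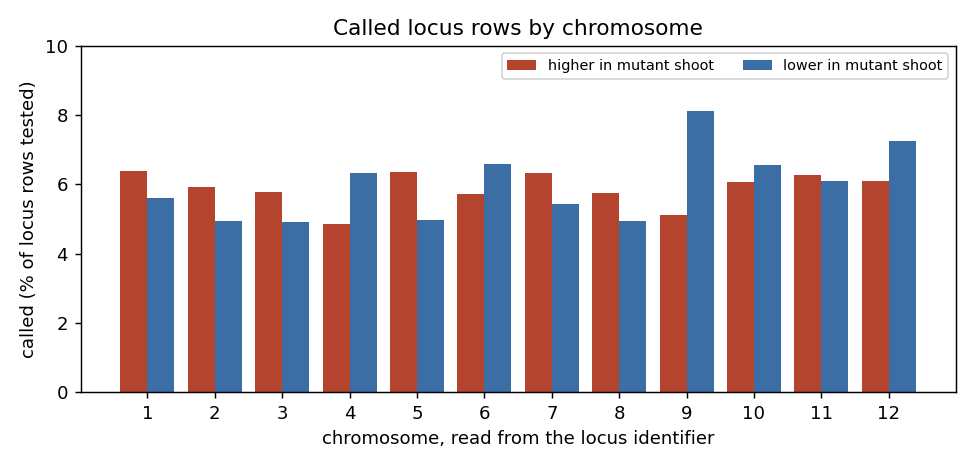
Percentage of tested locus rows on each chromosome that passed the test as higher (red) or lower (blue) in mutant shoot. Chromosome 9 has the highest share of falls, 8.11%.

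Called loci stood next to loci called in the same direction in a larger share of cases than next to loci called in the opposite one. Among 1161 loci that fell and had a next tested locus in number order on their chromosome, that next locus fell as well in 162 cases (14%) and rose in 61 (5.25%). Among 1188 that rose, the next rose in 133 cases (11.2%) and fell in 48 (4.04%). The background shares are the 5.77% and 5.91% given above. Both shares move with the number of calls. For loci that fell, the share ran over the alternatives between 11.1% with a pseudocount of 0.1 FPKM, where 4.43% of all loci fell, and 15.1% without WT shoot library 1, where 5.96% did. For loci that rose it ran between 6.82% without mutant shoot library 1, where 2.41% of all loci rose, and 15.7% in a fit of the 6 shoot libraries alone, where 8.86% did. Near-identical neighbouring copies can share reads, and overlapping neighbours can too because the library kit does not mark strand. The part of such shared reads was not tested, and the shares carry no test.

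The longest run was 6 consecutive tested loci on chromosome 7, all lower in mutant shoot. Their means were between 1.21 and 5.99 FPKM in mutant shoot and between 8.63 and 17.4 FPKM in WT shoot, with log2 fold changes from −2.71 to −1.07. Runs of 5 falling loci lay on chromosomes 2 and 10. The run on chromosome 10 held short loci of 246 to 631 bases, with means of 0.333 to 189 FPKM in mutant shoot and 7.76 to 740 FPKM in WT shoot. A run of 5 rising loci lay on chromosome 2, with log2 fold changes from 0.95 to 1.78. On chromosome 12, a run of 4 rising loci reached log2 fold changes between 1.85 and 6.05.

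A larger share of long loci than of short loci passed as higher in mutant shoot. For this the loci were divided into 4 length classes of nearly equal number. The length is the exon length behind the FPKM values, recovered from them, not the distance that the polymerase travels. Among the 5025 longest loci, of 2289 to 9536 bases, 8.24% were higher and 4.52% lower in mutant shoot. Among the 5034 shortest, of 174 to 1055 bases, 5.13% were higher and 6.44% lower. The middle classes had 4.61% higher and 6.32% lower at 1056 to 1586 bases and 5.67% higher and 5.81% lower at 1587 to 2288 bases. The median log2 fold change was 0.11, 0.10, 0.15 and 0.22 from the shortest to the longest class.

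The median log2(FPKM + 1) of the longest class exceeded that of the shortest by 0.299, 0.288 and 0.368 in mutant shoot libraries 1, 2 and 3, against 0.183, 0.159 and 0.106 in WT shoot libraries 1, 2 and 3. The mean excess was 0.318 ± 0.0437 in mutant shoot and 0.149 ± 0.0393 in WT shoot (SD, n = 3 each), and the groups did not overlap. The exact two-sided permutation test gave p = 0.1, which is the smallest value that 3 libraries against 3 can give. As a difference in median log2 fold change between the classes, it was 0.119, and it stayed between 0.0904 and 0.126 under the 14 alternatives, scaling included. The share of the longest class that was higher exceeded that of the shortest under each alternative, with the smallest gap without mutant shoot library 1 (3% against 2.66%). The length classes differ in other ways that were not tested.

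**Figure D5:**
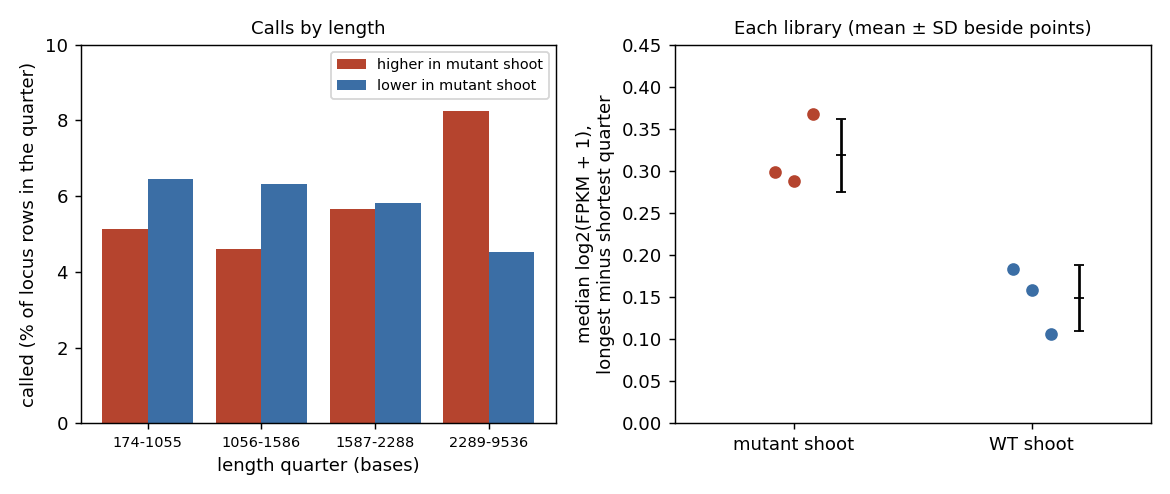
Left, percentage of locus rows in each length class that passed the test as higher (red) or lower (blue) in mutant shoot. Right, median log2(FPKM + 1) of the longest class minus that of the shortest in each library, with mean ± SD of 3 libraries, 0.318 ± 0.0437 in mutant and 0.149 ± 0.0393 in WT shoot.

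Calls were also counted by level. In 5 classes of 4023 loci by mean FPKM, between 5.2% and 6.44% were higher and between 4.87% and 6.49% lower in mutant shoot. Identifiers also differ in their numbers: most end in 00, and some lie between these steps. Among the 1350 tested loci with numbers between the steps, 1.78% rose at least 4-fold and 1.19% fell at least 4-fold. Among the 18765 with numbers ending in 00, 0.645% rose and 1.38% fell by as much. The loci between the steps were shorter, with a median of 1031 bases against 1615, and had a lower median in WT shoot, 4.11 against 11.1 FPKM.

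Many of the loci that changed in shoot were little expressed in WT root. Under 1 FPKM in WT root were 32.9% of the loci that fell in mutant shoot, 19.4% of those that rose and 9.98% of all loci tested. The share was 40.7% among loci that fell at least 4-fold and 31.7% among those that rose at least 4-fold. The shoot test pools the spread of a locus over all 12 libraries. A locus near 0 in root varies little there, so it can pass more easily in shoot. The part of this in the shares was not tested. In root, 473 of the 20115 loci (2.35%) were higher and 654 (3.25%) lower in the mutant. Of the 1161 loci that fell in shoot, 194 (16.7%) also fell in mutant root and 14 (1.21%) rose there. Of the 1189 that rose in shoot, 124 (10.4%) also rose in mutant root and 30 (2.52%) fell. The shoot and root comparisons use different WT libraries but share each locus's estimate of spread. The mutant effect itself differed between the tissues for 668 loci (3.32%; limma, adjusted p under 0.05), of which 322 had fallen and 207 had risen in shoot. Loci chosen for their change in shoot are more likely to pass this test, so these counts are descriptions.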

How the data were processed

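Shoot and root RNA of mutant and WT rice was sequenced, with 3 libraries per group. Per the labels' protocols, each library took 2 µg of RNA and a NEBNext Ultra kit that does not mark strand. Per the file headers, the deposited values are FPKM per identifier and library. The build IRGSP-1.0 and the tools HTSeq 0.6.0, HISAT2 2.1.0 and Bowtie2 2.2.3 are listed, without role or order, in the submitters' processing notes. The annotation release is not given in the sources used here. Chromosomes were read from the identifiers and no coordinates were used.

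Reads and lengths were recovered from the steps of the FPKM values (tolerance 0.002 reads). Of 30568 rows above 0 in 5 or more libraries, 99.9% gave a whole length within 0.05 bases, and library totals came out whole. A floor of 3 reads equals 0.19 to 0.296 FPKM, depending on the library, for a length of 1 kb. Floors and intervals cover counting error only.

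Tests used limma 3.58.1 in R 4.3.3 (limma-trend on log2(FPKM + 1), Benjamini-Hochberg adjustment) across 22401 rows that reached 1 FPKM in 3 or more of the 6 shoot libraries. All 12 libraries entered the fit, with a mean per group and a shared spread per row. A log2 fold change on this scale understates the change of low loci. The 2 loci with the largest log2 rise and the 2 with the largest fall are named, because the identifiers could not be matched to names. For the same reason 70 gene lists found no members. Members, lists and tests were chosen with earlier results of these data known. The descriptions by length, level, chromosome, neighbour, identifier number, read share, missing reads, fold size and level in root were chosen after the data were seen. Replicate numbers were not used as pairs in the main fit, and whether same-numbered mutant and WT libraries were paired could not be decided. The alternatives were another pseudocount, filters, scalings and fits, a replicate block, and leaving out each shoot library.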

Additional observations from a re-analysis of the deposited data

Results flagged for a closer look

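For 3 of the 4 named loci, which were chosen for the size of their change in shoot, root minus shoot passed the test of that difference. The value was 9.28 for Os08g0167800, 7.54 for Os08g0139700 and −3.23 for Os08g0290700 on the log2 scale (limma adjusted p = 3.36e-08, 8.63e-08 and 0.0306). The first of these loci had 3 reads in mutant root and 4 in WT root, and the second had 1 and 0, so for both the value only restates the fall in shoot and is no separate evidence. Os08g0290700 was higher in both tissues of the mutant, and the difference for it did not pass under 6 alternatives (adjusted p = 0.0557 to 0.233). No group has the 4 libraries that the test of a single outlying library needs.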

How the results depend on the processing

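All log2 fold changes of the 4 named loci in shoot kept their direction and passed under all 14 alternatives. These loci were chosen as the largest called changes without overlap, so that they passed again is no separate evidence. The count of changed loci was 1701 to 3351 over the alternatives that kept all shoot libraries and 1178 to 2966 when 1 was left out. Loci that were higher numbered 755 with median-ratio factors and 484 to 1768 with 1 library left out, and loci that were lower numbered 694 to 1198. The cause was not tested. With a replicate block 1701 loci passed, 787 higher and 914 lower. Deviations of same-numbered mutant and WT shoot libraries from their group means correlated at −0.194, 0.334 and −0.0392. For libraries of different number the values ran from −0.358 to 0.422. With 3 libraries per group these values cannot decide whether the labels' numbers pair the libraries. Of the 4 named loci, 3 had effects that differed between the tissues, 4 with median-ratio factors and 2 to 3 with 1 library left out. Leaving out a library leaves a group of 2, which is assumed to vary like the other groups. No alternative could be run for the gene lists, which matched no identifier. The number of loci without reads moved with the filter, and depth was not varied: with no filter on low values, 57 called loci had no read in WT shoot and 55 none in mutant shoot, against 17 and 16, and 26 had none in WT without WT shoot library 1.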
